A study of Mus musculus with 40 samples.

Results

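The 9 genes described here encode enzymes that make heme or take it apart. Alas1, Alad, Uros, Urod, Cpox, Ppox and Fech belong to synthesis, and the biliverdin reductases Blvra and Blvrb belong to breakdown. They were chosen by gene symbol from 55359 Ensembl mouse genes, of which 17345 had enough reads to be tested, and all 9 were among those tested. The series is bulk RNA sequencing of right kidneys of male mice, labelled C57BL/6 and given as C57BL/6NCrl in the study's design text. Its 40 libraries form 8 groups of 5. The design text gives 5 per dose, and no label says that each library is a separate animal. Mice received sesame oil alone (vehicle) or 2,3,7,8-tetrachlorodibenzo-p-dioxin (TCDD) in sesame oil at 0.03, 0.1, 0.3, 1, 3, 10 or 30 µg/kg by oral gavage. Dosing was repeated at intervals of 4 days over 28 days (7 administrations), from an age of 30 days, and kidneys were taken at 58 days. No female, no other time and no cell fraction was analysed here, and every dose was set against the same 5 vehicle libraries.

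Heme is an iron-bearing porphyrin ring that cells build from glycine and succinyl-CoA in a chain of steps that begins in the mitochondrion, passes through the cytosol and returns to the mitochondrion for the insertion of iron. The first enzyme, made from Alas1 outside red cell precursors, sets the pace and is held down by heme itself. Heme oxygenases open the ring to biliverdin, which biliverdin reductases turn into bilirubin. TCDD binds the aryl hydrocarbon receptor, a transcription factor whose best known target, Cyp1a1, encodes a cytochrome P450 that carries heme, and exposure to dioxins is known in liver for disturbing the porphyrin pathway at the step of uroporphyrinogen decarboxylase, the product of Urod.

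The DNA just upstream of 4 of these genes is shown because they were the members whose transcripts passed a test against vehicle or along dose: Alad, Uros, Cpox and Blvra. Each run is the 250 bases before a transcription start in RefSeq on the GRCm38.p6 build, written 5′ to 3′ on the gene's own strand, and its last base lies next to the start. Capitals mark GCGTG, the core of the xenobiotic response element to which the aryl hydrocarbon receptor binds, searched on both strands. For a gene with more than 1 start, the window with the most GCGTG matches is shown, or the first listed in a tie.
Alad, chr4:62519910-62520159, minus strand: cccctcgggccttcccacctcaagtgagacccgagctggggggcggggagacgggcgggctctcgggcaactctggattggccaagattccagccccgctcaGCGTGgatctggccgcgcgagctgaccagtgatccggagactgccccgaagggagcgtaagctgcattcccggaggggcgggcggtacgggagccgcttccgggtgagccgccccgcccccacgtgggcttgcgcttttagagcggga
Uros, chr7:133709296-133709545, minus strand: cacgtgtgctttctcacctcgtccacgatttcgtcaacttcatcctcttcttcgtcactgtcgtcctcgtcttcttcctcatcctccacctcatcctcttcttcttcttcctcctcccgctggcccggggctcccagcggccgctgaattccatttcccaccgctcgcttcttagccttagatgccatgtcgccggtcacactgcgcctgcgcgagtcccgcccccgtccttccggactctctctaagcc
Cpox, chr16:58669958-58670207, plus strand: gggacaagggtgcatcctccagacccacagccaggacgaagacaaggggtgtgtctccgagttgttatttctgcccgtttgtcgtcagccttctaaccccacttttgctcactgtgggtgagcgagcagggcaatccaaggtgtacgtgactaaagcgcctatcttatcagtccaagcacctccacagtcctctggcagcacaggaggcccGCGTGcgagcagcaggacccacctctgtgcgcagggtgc
Blvra, chr2:127070407-127070656, plus strand: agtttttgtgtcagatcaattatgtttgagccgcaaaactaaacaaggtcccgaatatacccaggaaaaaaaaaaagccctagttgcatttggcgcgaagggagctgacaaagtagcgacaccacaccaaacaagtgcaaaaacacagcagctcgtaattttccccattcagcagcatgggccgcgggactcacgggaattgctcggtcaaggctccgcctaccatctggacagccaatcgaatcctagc
The Alad window held GCGTG at position -148 from the start and the Cpox window at -39, while the Uros and Blvra windows held none. Alad and Uros each have a further start in the table, and neither of those windows held the letters. In all, 8 of the 9 members had an entry, with 12 windows, and 5 windows of 5 members (Alad, Cpox, Ppox, Blvrb and Alas1) held GCGTG. Of all 32851 windows of the same length, 28.2% held it. The antioxidant response element core TGACNNNGC was found upstream of Blvra among the members and in 10.2% of all windows. The core bound by nuclear respiratory factor 1, GCATGCGC, was found upstream of Alas1 and in 2.26% of all windows. These are letter matches and say nothing of binding.

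Gene counts summed to between 15278423 and 25575317 per library, with a median of 17671162. Cyp1a1 served as a check of exposure. Its mean was 2.37 ± 1.25 CPM (SD, n = 5) in vehicle, 1569 ± 147 CPM after 10 µg/kg and 2537 ± 436 CPM after 30 µg/kg. CPM are counts scaled to library size with a TMM factor. The liver form Cyp1a2 was near its detection limit in vehicle, with a mean of 0.151 CPM, and had a mean of 1.17 CPM at 30 µg/kg. Whether it was called at 30 µg/kg depended on the test. Defining markers of proximal tubule, thick limb, distal tubule, collecting duct, endothelium and podocytes were detected in every group. A medulla against cortex score was the mean log2 CPM of thick limb and principal cell markers minus that of proximal S1 and S2 markers. In it 4 libraries stood apart at -4.439 to -4.263, against -3.512 to -2.88 in the other 36. They were vehicle replicates 1 and 2, and 30 µg/kg replicates 2 and 3. Adrenal markers summed to 792 CPM in 0.03 µg/kg replicate 1, 827 CPM in 1 µg/kg replicate 4 and 43.2 CPM in 3 µg/kg replicate 2, against 3.20 to 8.81 CPM in the other libraries. In bulk tissue, fewer cells of a type and less RNA per cell cannot be told apart.

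Among the members, those that passed the test at some dose were all lower after TCDD, and none was called higher. Alad and Blvra fell at 10 µg/kg, by 20.6% and 19.0%. Alad, Cpox and Uros fell at 30 µg/kg, by 17.6%, 17.4% and 16.4%. Along the rank of dose from vehicle to 30 µg/kg, Alad, Uros, Cpox and Blvra fell, and without the 30 µg/kg group Uros and Cpox no longer passed. Alas1 had the lowest fitted value at 30 µg/kg, -27.0%, without passing the threshold, and Urod, Ppox, Fech and Blvrb passed at no dose.

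The tests were edgeR's quasi-likelihood tests over all 40 libraries with Benjamini-Hochberg adjustment over the 17345 genes and a threshold of 0.05. At 10 µg/kg 2 of 9 members were called, both lower, where 4.82% of all genes were called and 0.997% were called lower. At 30 µg/kg 3 of 9 were called, all lower, where 15.9% of all genes were called and 7.55% were called lower. By the trend over dose rank 4 of 9 were called, all lower, where 19.8% of all genes were called and 8.84% were called lower. The median log2 change of the 9 members was -0.13 at 10 µg/kg and -0.16 at 30 µg/kg, where that of all genes was -0.005 and 0.011. Fitted values were below 0 for 8 of 9 members at 10 µg/kg and for 6 of 9 at 30 µg/kg. At 30 µg/kg 0 members had a range wholly below that of vehicle, where 2.83% of all genes did. All of these comparisons share the vehicle libraries, and p-values measure only the spread between these libraries, which may be technical.

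From 0.03 to 3 µg/kg edgeR called 0 members, as did DESeq2 and limma-voom. Over all genes, 0% were called at 0.03 µg/kg and 0% at 0.1 µg/kg, against 0.00577% at 0.3, 0.513% at 1 and 1.09% at 3 µg/kg. At an unadjusted p under 0.05 there were 2, 1, 2, 3 and 2 members from the lowest of these doses to the highest, and 983, 960, 908, 1231 and 1553 genes in all. Those members were Alad and Ppox at 0.03, Ppox at 0.1, Ppox and Fech at 0.3, Alas1, Alad and Ppox at 1, and Alad and Blvra at 3 µg/kg. Ppox lay above vehicle in each of its 4 cases, and the others lay below it.

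**Figure D1:**
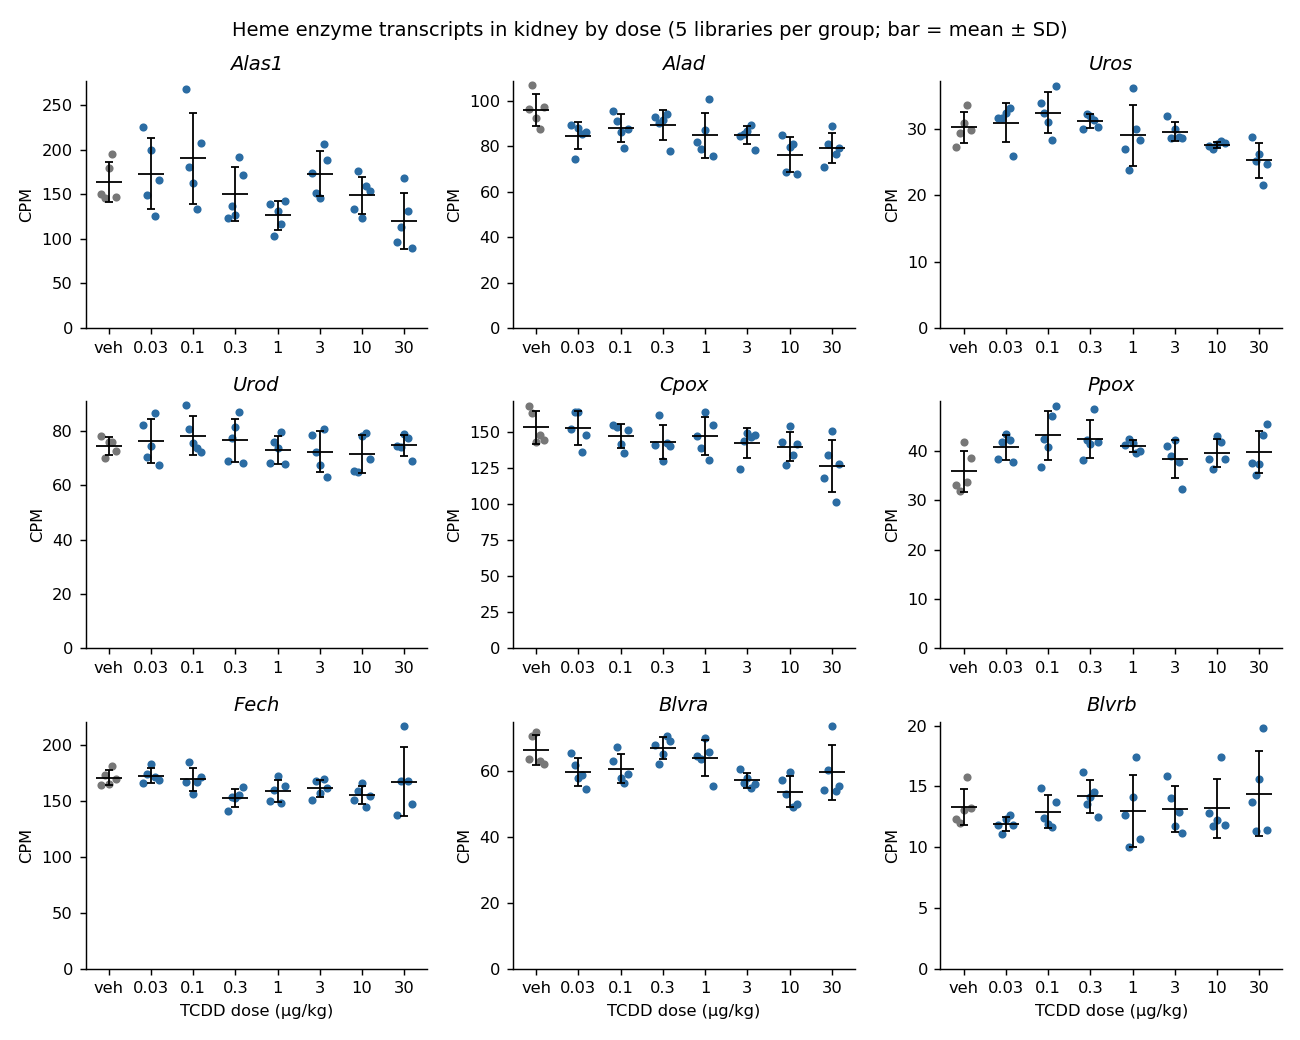
Transcript level of the 9 heme enzymes in CPM (y axis, from 0) for vehicle and 7 doses of TCDD in µg/kg (x axis), with each point 1 library and bars the mean ± SD of 5. Alad has a mean of 96.2 CPM in vehicle and of 76.4 after 10 µg/kg, Alas1 is the most scattered, and 1 Fech library at 30 µg/kg reaches 217 CPM.

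Levels of different genes were compared as CPM per kilobase of exon. The length joins all annotated exons of a gene, from 1871 bases for Alad to 13838 for Fech, so the order depends on it. In vehicle kidneys Alad was the highest of the 9 on this scale, at 51.4 ± 3.8 CPM per kilobase (SD, n = 5). By CPM without length, Fech (171), Alas1 (164) and Cpox (153) stood above Alad (96.2), and the rest stood below it. Urod at 28.8 ± 1.2, Blvra at 27.1 ± 1.9, Alas1 at 26.5 ± 3.6 and Cpox at 23.0 ± 1.7 CPM per kilobase formed a middle group. Fech followed at 12.3 ± 0.5, Uros at 8.44 ± 0.64 and Ppox at 7.93 ± 0.93 CPM per kilobase. Blvrb was the least abundant, at 4.77 ± 0.53 CPM per kilobase.

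The 9 members differed in how tightly libraries of a group agreed. The median within-group coefficient of variation was 17.4% for Alas1, 12.7% for Blvrb, and between 5.21% (Fech) and 9.49% (Ppox) for the rest. Alas1 ran from 89.2 to 268 CPM over the 40 libraries, a ratio of 3.00, while the other 8 spanned ratios from 1.42 (Urod) to 1.98 (Blvrb). When the 8 groups were put in order of their means, no 2 neighbouring groups had ranges that failed to overlap, for any member.

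Alas1 encodes 5-aminolevulinate synthase of most tissues, the first and rate-limiting enzyme. Its vehicle libraries held 150.0, 146, 179, 195 and 147 CPM. After 30 µg/kg libraries held 96.2, 113, 168, 131 and 89.2 CPM, so 4 of 5 lay below every vehicle library and replicate 3 lay within their range. The log2 change was -0.45 ± 0.18 (SE), with a 95% interval of -0.80 to -0.11 and an adjusted p of 0.0791 (edgeR). The group means had no steady order: 190.5 ± 51.1 CPM at 0.1 µg/kg was the highest, 126 ± 16.5 CPM at 1 µg/kg was the second lowest, and 3 µg/kg stood at 173 ± 25 CPM. At 1 µg/kg all 5 libraries (103 to 142 CPM) were below the vehicle range, as were 0.548% of all genes, and the adjusted p was 0.691 (edgeR). The slope was -0.057 ± 0.022 log2 units per dose rank, with an adjusted p of 0.0566 (edgeR). Part of its exons, 7.53%, lies over 4930500F10Rik on the other strand, and reads there may be among the ambiguous reads left out.

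Alad encodes 5-aminolevulinate dehydratase, which joins a pair of aminolevulinate molecules into porphobilinogen in the cytosol. Its vehicle libraries held 96.3, 107, 92.6, 87.8 and 97.4 CPM. At 10 µg/kg they held 84.9, 68.7, 79.6, 80.9 and 67.8 CPM, and at 30 µg/kg 70.8, 80.8, 89.0, 76.6 and 79.3 CPM. The 10 µg/kg and vehicle ranges did not overlap, which held in the lower direction for 1.82% of all genes, while at 30 µg/kg replicate 3 reached into the vehicle range. The log2 change was -0.33 ± 0.08 (SE) at 10 µg/kg, adjusted p = 0.00311, and -0.28 ± 0.08 at 30 µg/kg, adjusted p = 0.00726 (edgeR). Alad was below vehicle in fitted value at all 7 doses, starting with -0.18 ± 0.08 at 0.03 µg/kg (adjusted p = 0.855, edgeR), and the slope was -0.035 ± 0.008 per dose rank (adjusted p = 0.00191). Means between these ends ran from 84.7 to 89.3 CPM at 0.03 to 3 µg/kg, with no order by dose among them.

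Uros encodes uroporphyrinogen III synthase, which closes the porphyrin ring. Its vehicle libraries held 27.3, 29.4, 30.9, 33.5 and 29.8 CPM, and those at 30 µg/kg held 28.7, 25.1, 26.2, 21.5 and 24.6 CPM. All but replicate 1 of the 30 µg/kg libraries lay below the vehicle range. The log2 change was -0.26 ± 0.09 (SE), adjusted p = 0.0339 (edgeR). Libraries of the 10 µg/kg group lay close together, at 26.9 to 28.1 CPM, with a log2 change of -0.13 ± 0.09 and an adjusted p of 0.509 (edgeR). The highest group mean was 32.4 ± 3.1 CPM at 0.1 µg/kg (adjusted p = 0.926), and the slope was -0.037 ± 0.010 per dose rank (adjusted p = 0.00441, edgeR). Without the 30 µg/kg group the slope was -0.024 (adjusted p = 0.213, edgeR). The test at 30 µg/kg depended on single libraries: without 1 of the 10 libraries in turn the adjusted p ran from 0.0117 to 0.141, and Uros was called in 5 of 10 such fits. The call was lost without vehicle replicates 3 or 4 or 30 µg/kg replicates 2, 4 or 5.

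Urod encodes uroporphyrinogen decarboxylase, the enzyme whose activity is known to fall in livers with dioxin-related porphyria. In kidney its transcript differed little. Vehicle libraries held 70.1 to 78.1 CPM with a median of 75.8, and those at 30 µg/kg held 74.4, 74.1, 79.0, 77.5 and 69.1 CPM. The log2 change at 30 µg/kg was 0.01 ± 0.08 (SE), with a 95% interval of -0.15 to 0.16 and an adjusted p of 0.978 (edgeR). Over the 7 doses the fitted log2 changes ran from -0.06 at 10 µg/kg to 0.07 at 0.1 µg/kg. Its group means stood within a ratio of 1.10 of each other, the narrowest among the 9.

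Cpox encodes coproporphyrinogen oxidase of the mitochondrial intermembrane space. Its vehicle libraries held 168, 163, 143, 148 and 144 CPM, and those at 30 µg/kg held 118, 135, 151, 102 and 128 CPM. Again 4 of 5 were below every vehicle library, and replicate 3 was not. The log2 change was -0.28 ± 0.08 (SE), adjusted p = 0.0112 (edgeR). Cpox means followed the order of dose except that 1 µg/kg lay above 0.3 µg/kg, with vehicle at 153 ± 12 CPM, 10 µg/kg at 140.1 ± 10.3 CPM and 30 µg/kg at 127 ± 18 CPM. The slope was -0.032 ± 0.009 per dose rank (adjusted p = 0.0055, edgeR), and without the 30 µg/kg group it was -0.022 (adjusted p = 0.141, edgeR). The change after 10 µg/kg was -0.13 ± 0.08 with an adjusted p of 0.449. With replicate 4 of 30 µg/kg left out, the library with the lowest value, the adjusted p at 30 µg/kg was 0.0772, and in the other 9 of 10 fits without 1 library Cpox was called.

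Ppox encodes protoporphyrinogen oxidase, the next to last enzyme. Its vehicle libraries held 33.1, 31.9, 41.9, 33.7 and 38.5 CPM and those at 0.1 µg/kg held 36.6, 42.4, 40.8, 46.9 and 49.1 CPM, where 3 of 5 were above all vehicle libraries. The fitted log2 change was above 0 at all 7 doses, with the highest, 0.27 ± 0.09 (SE), at 0.1 µg/kg, where the unadjusted p was 0.00307 and the adjusted p 0.877 (edgeR). The change after 30 µg/kg was 0.15 ± 0.09, adjusted p = 0.256. The vehicle group had the lowest mean of the 8, and the slope along dose was 0.003 ± 0.010 per rank. Ppox shares 17.5% of its exonic bases with B4galt3 on the opposite strand, so reads in that stretch may be among the ambiguous reads left out.

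Fech encodes ferrochelatase, which places iron into protoporphyrin to finish heme. Its vehicle libraries lay close together, at 164, 173, 165, 181 and 169 CPM. After 30 µg/kg they were spread, at 137, 167, 217, 168 and 147 CPM, with replicate 3 above and replicates 1 and 5 below every vehicle library. The standard deviation was 30.6 CPM there against 6.86 CPM in vehicle, and the means of 167 and 171 CPM gave a log2 change of -0.03 ± 0.07 (SE; adjusted p = 0.848, edgeR). At 0.3 µg/kg all 5 libraries (140.5 to 162 CPM) were below the vehicle range, as were 0.381% of all genes, with a log2 change of -0.16 ± 0.07 and an adjusted p of 0.92. After 10 µg/kg the change was -0.14 ± 0.07, adjusted p = 0.361 (edgeR).

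Blvra encodes biliverdin reductase A, which makes bilirubin. Its vehicle libraries held 63.7, 70.7, 71.8, 63.1 and 62.2 CPM, and those at 10 µg/kg held 57.3, 53.0, 59.7, 49.0 and 49.9 CPM, so the ranges did not overlap. The log2 change at 10 µg/kg was -0.30 ± 0.08 (SE), adjusted p = 0.0088 (edgeR). At 3 µg/kg, too, all 5 libraries (54.8 to 60.5 CPM) were below vehicle, as were 0.68% of all genes, with a change of -0.22 ± 0.08 and an adjusted p of 0.242. At 30 µg/kg they held 54.2, 60.3, 73.6, 53.9 and 55.5 CPM, where replicate 3 was above every vehicle library and the other 4 below, and the change was -0.16 ± 0.08 (adjusted p = 0.167, edgeR). The slope over all doses was -0.026 ± 0.009 per rank, adjusted p = 0.0406 (edgeR). That call was made in 28 of 40 fits without 1 library, with adjusted p-values of up to 0.087. It was lost without vehicle replicates 2 or 3, replicate 1 at 0.03, replicate 2 at 0.1, replicate 4 at 3, replicates 1, 2, 4 or 5 at 10, or replicates 1, 4 or 5 at 30 µg/kg. The slope also missed the threshold with no filter on low counts (adjusted p = 0.0555) and in the sense column (-0.016, adjusted p = 0.362). That is the stranded column with the larger total, which held 50.4 to 51.0% of stranded counts and so does not separate strands. In its counts, the Blvra change at 10 µg/kg was -0.28 with an adjusted p of 0.0816, and at 30 µg/kg it was -0.02.

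Blvrb encodes biliverdin reductase B, also known as flavin reductase and best known from red cells. Its levels were low, at 10.0 to 19.8 CPM over all libraries, or 172 to 445 reads. Libraries of the 30 µg/kg group held 13.7, 11.4, 15.6, 19.8 and 11.4 CPM against 12.0 to 15.8 CPM in vehicle. The groups overlapped, and the log2 change was 0.12 ± 0.14 (SE), with a 95% interval of -0.16 to 0.39 and an adjusted p of 0.66 (edgeR). At 10 µg/kg it was -0.003 ± 0.141.

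**Figure D2:**
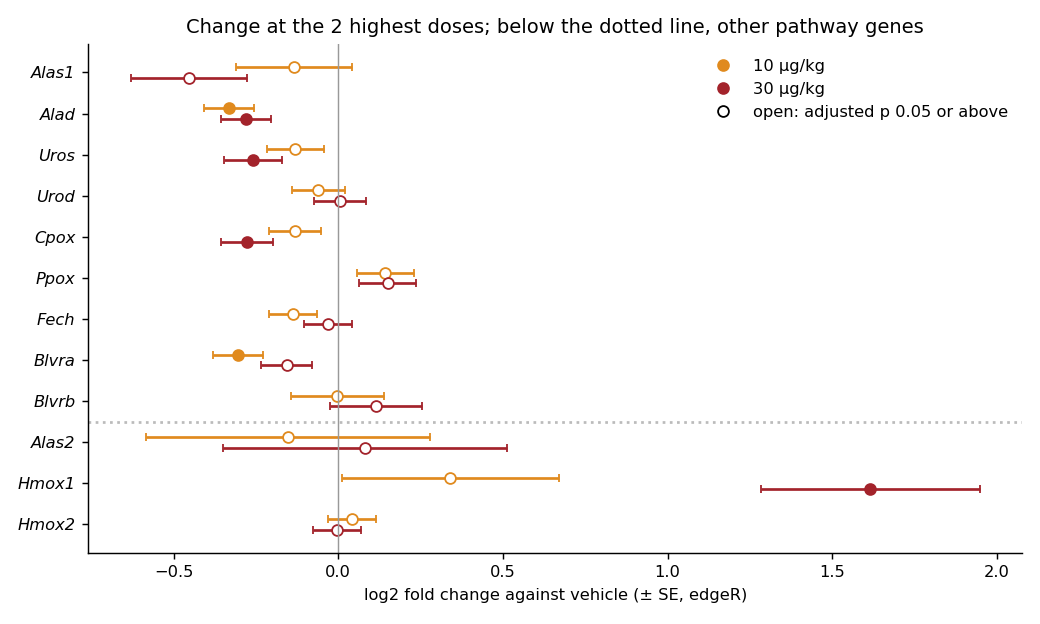
Fitted log2 change against vehicle with its SE (x axis) at 10 and 30 µg/kg for the 9 heme enzymes and, under the dotted line, 3 other pathway genes. Filled points pass an adjusted p of 0.05: Alad and Blvra at 10 µg/kg, and Alad, Uros, Cpox and Hmox1 at 30 µg/kg, with Hmox1 at 1.62 and the others below 0.

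Hmox1 encodes the inducible heme oxygenase, which opens the ring to biliverdin. It held 30.1 to 41.2 CPM in vehicle and 66.3, 35.2, 293, 112 and 43.3 CPM at 30 µg/kg, where 4 of 5 libraries were above the vehicle range and replicate 3 stood far above the rest. The log2 change was 1.62 ± 0.33 (SE), adjusted p = 0.00072 (edgeR). Over the 10 fits that left out 1 library it ran from 0.84, without replicate 3, to 1.84, with adjusted p-values of at most 0.00903. With the 10 libraries of the 2 groups alone the adjusted p was 0.154 (edgeR). The 10 µg/kg libraries held 39.4 to 53.9 CPM, with a change of 0.34 ± 0.33 and an adjusted p of 0.707.

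Hmox2, the constitutive heme oxygenase, held 34.5 to 41.4 CPM in vehicle and 34.5 to 39.9 CPM at 30 µg/kg, with a log2 change of -0.005 ± 0.073 (SE) and an adjusted p of 0.976 (edgeR). Alas2, the synthase of red cell precursors, held 28.7, 11.9, 2.58, 5.00 and 2.60 CPM at 30 µg/kg against 5.40 to 14.1 CPM in vehicle (adjusted p = 0.934). Its highest and lowest libraries, both in that group, differed by a ratio of 11.2. Summed red cell markers (9 of 10 matched, Alas2 and the globins among them, none at 0) moved with it: they ran from 129 to 1404 CPM at 30 µg/kg and from 487 to 778 CPM in vehicle, with the highest in replicate 1 and the lowest in replicate 3. Of Hmox1, Hmox2 and Alas2, 1 rose and 0 fell at 30 µg/kg, and 0 were called at 10 µg/kg, where 0 had an unadjusted p under 0.05 and DESeq2 and limma-voom called 0 as well.

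**Figure D3:**
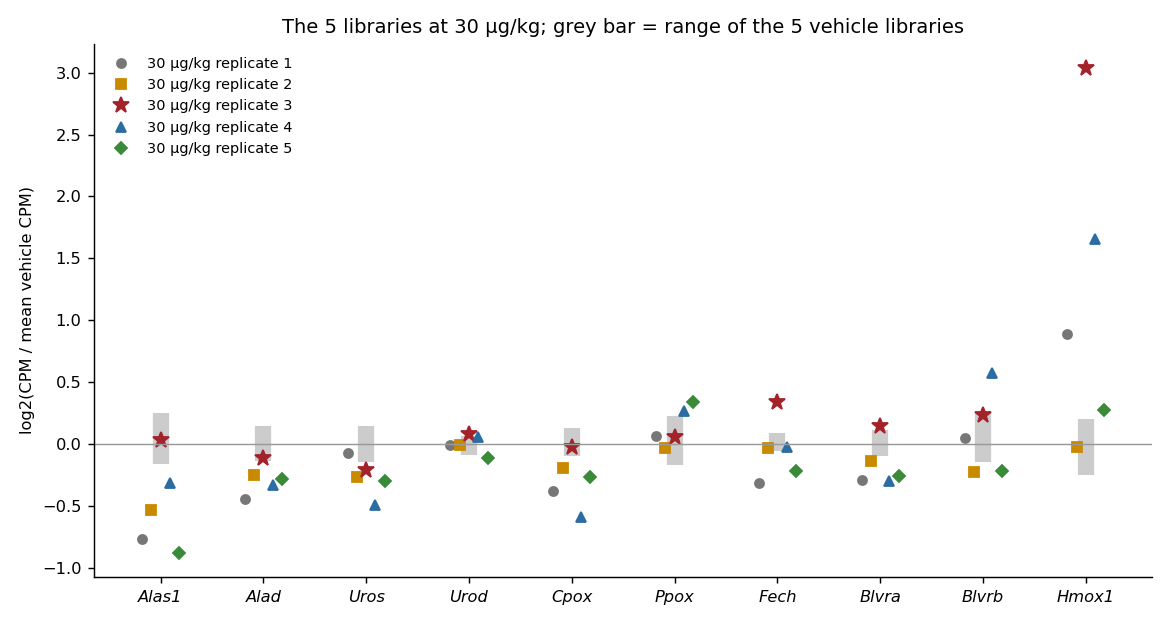
Each of the 5 libraries at 30 µg/kg as log2 of its CPM over the vehicle mean (y axis) for the 9 heme enzymes and Hmox1 (x axis), with grey bars the range of the 5 vehicle libraries. Replicate 3 (star) is the highest of 5 for 6 of the 9 heme enzymes and for Hmox1, where it held 293 CPM.

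Replicate 3 of the 30 µg/kg group set itself apart from the other 4 in this pathway. It was the highest of 5 for Alas1, Alad, Urod, Cpox, Fech and Blvra, and the lowest for none of the 9. It also had the lowest summed level of proximal S3 markers, 434 CPM, where the others held 744 to 2763 CPM and vehicle libraries 1754 to 3903 CPM. Without it, 5 members were called at 30 µg/kg: Alas1 joined with a log2 change of -0.61 (adjusted p = 0.015) and Blvra with -0.25 (adjusted p = 0.0148). Without replicate 4, the lowest of 5 for Uros, Cpox and Blvra, only Alad was called. Over the 10 fits without 1 library, the calls over all genes also moved, from 2014 to 3275, against 2766 with all 40 libraries. Without the 4 libraries that stood apart in the score of medulla against cortex, a comparison added after the data were seen, 5 members were called, with Alas1 at -0.72 (adjusted p = 0.0309) and Blvra at -0.27 (adjusted p = 0.0384). With only the 10 libraries of 30 µg/kg and vehicle in the fit, 0 members passed, with Alad nearest at an adjusted p of 0.0634 (edgeR). In all, 969 genes were called there, the fewest over the 8 other settings, which called 969 to 2981.

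**Figure D4:**
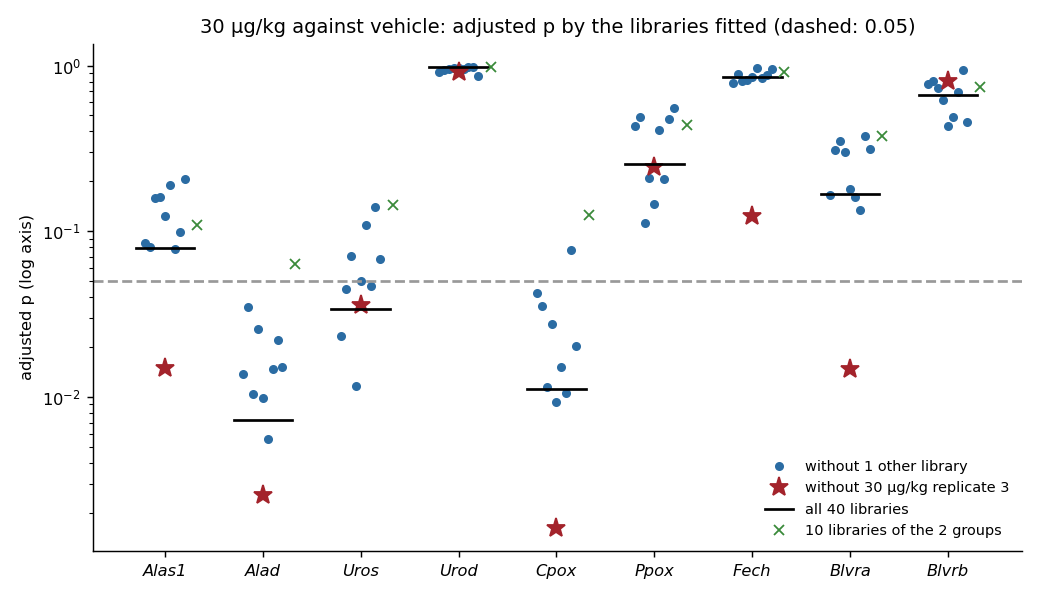
Adjusted p of 30 µg/kg against vehicle (y axis, log scale) for the 9 heme enzymes (x axis), with all 40 libraries (bar), without 1 of the 10 libraries of the 2 groups in turn (points), without 30 µg/kg replicate 3 (star), and with the 10 libraries alone (cross). Alad stays under the dashed line at 0.05 in all 10 fits without 1 library, Cpox in 9 and Uros in 5, and Alas1 and Blvra pass under it without replicate 3.

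Markers of other cells differed between dose groups as well. Macrophages take up red cells and carry much heme oxygenase, and their 8 markers (0 at 0 in all libraries) summed to 73.2 to 127 CPM in the vehicle group, 161.3 to 195 CPM at 10 µg/kg and 146 to 188 CPM at 30 µg/kg, with 5 of 8 called higher at each of these doses. Proximal S1 and S2 markers summed to 12946 to 17590 CPM in the vehicle group. They held 11797 to 13472 CPM at 10 µg/kg and 9313 to 16387 CPM at 30 µg/kg. Vehicle replicates 1 and 2, apart in the medulla score that uses these markers, held 17153 and 17590 CPM. The other vehicle libraries held 12946 to 13421 CPM, and groups from 0.03 to 3 µg/kg spanned 11880 to 14287 CPM. Macrophage markers summed to 84.5 and 73.2 CPM in those 2 replicates, against 117 to 127 CPM in the other vehicle libraries. Of 7 proximal S3 markers 5 fell and 1 rose at 30 µg/kg. Endothelial markers, summing to 349 to 373 CPM in the vehicle group, held 485 to 534 CPM at 10 µg/kg and 482 to 552 CPM at 30 µg/kg, with 6 and 5 of 7 called higher. Podocyte markers ran from 267 to 377 CPM in vehicle, from 408 to 543 CPM at 10 µg/kg and from 378 to 539 CPM at 30 µg/kg, with 4 and 3 of 5 called higher. Markers of collecting duct principal cells were called lower for 2 and 3 of 5 at these doses, and those of the distal convoluted tubule for 2 and 1 of 3. Adipocyte markers summed to 32.3 to 90.2 CPM in the vehicle group, 7.83 to 143 CPM at 1 µg/kg and 23.7 to 185 CPM at 10 µg/kg. After 30 µg/kg they summed to 104 to 248.5 CPM, with 1 of 5 called higher and 1 lower. Among all 17345 tested genes, 663 were called higher and 173 lower at 10 µg/kg, and 1456 and 1310 at 30 µg/kg. The part of the marker shifts in the levels of the heme enzymes was not tested.

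Around the pathway, transcripts of carriers and binders of glycine, porphyrin or heme changed in both directions at 30 µg/kg, with 3 of 17 higher and 2 lower, where 8.39% of all genes were higher and 7.55% lower. Lrp1, the receptor that takes up heme bound to hemopexin, rose from 75.7 ± 12.5 to 117 ± 15 CPM (SD, n = 5). Flvcr2, a transporter of the FLVCR family, rose from 16.9 ± 5.7 to 34.4 ± 17.7 CPM and Slc48a1, which moves heme out of lysosomes, from 166 ± 8 to 199 ± 31 CPM. Tmem14c, which helps porphyrin into the mitochondrial matrix, fell from 97.6 ± 9.9 to 76.7 ± 11.5 CPM, and Abcb10, of the mitochondrial inner membrane, from 40.6 ± 6.5 to 32.0 ± 4.0 CPM. Their adjusted p-values (edgeR) ran from 0.000179 for Lrp1 to 0.0183 for Abcb10. After 10 µg/kg Lrp1 was already higher (log2 change 0.43, adjusted p = 0.0213) and Abcb10 lower (-0.34, adjusted p = 0.0478). Abcb10 passed at 10 µg/kg with DESeq2 and with its size factors in edgeR, and did not with no filter on low counts, limma-voom, the sense column, the medulla score as a covariate, 2 groups only or without the 4 libraries apart in the medulla score, which also lost Lrp1. At 30 µg/kg, with only the libraries of the 2 groups, Lrp1 alone was called and 0 were lower. Abcb10 was called there in 7 of 10 fits without 1 library (not without vehicle replicates 1 or 2 or 30 µg/kg replicate 4), and Slc48a1 missed the threshold without 30 µg/kg replicate 3 (adjusted p = 0.0651). Without the 4 libraries apart in the medulla score, Flvcr2 stood at 0.60 (adjusted p = 0.087) and Slc48a1 and Abcb10 no longer passed at 30 µg/kg either (adjusted p = 0.092 and 0.134, edgeR).

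Genes of iron supply, iron-sulfur cluster assembly and iron storage were also split at 30 µg/kg, with 3 of 17 tested higher and 3 lower, against the same 8.39% and 7.55% of all genes. Slc40a1, the iron exporter ferroportin, rose from 56.5 ± 12.4 to 94.3 ± 26.8 CPM (SD, n = 5), and Ftl1, ferritin light chain, from 199 ± 39 to 320 ± 73 CPM. Slc25a28, a mitochondrial iron importer, rose by a log2 change of 0.31 ± 0.09 (SE; adjusted p = 0.0133, edgeR). Aco1, whose product is the cytosolic aconitase and iron regulatory protein, fell from 458 ± 40 to 355 ± 41 CPM. Lyrm4 and Nfs1, partners in the cysteine desulfurase complex that feeds iron-sulfur clusters, fell by 0.58 and 0.19 on the log2 scale, with adjusted p-values of 0.00032 and 0.0311 (edgeR). Nfs1 was called in 4 of the 10 fits that left out 1 library, and Slc25a28 was lost without vehicle replicate 1 (adjusted p = 0.0565) or 30 µg/kg replicate 4 (0.135). With 2 groups only, Ftl1 was called higher and Lyrm4 and Aco1 lower. In the 10 µg/kg comparison edgeR called 1 of the 17, Aco1 (-0.24, adjusted p = 0.0271).

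Of 13 tested genes known to act on Alas1 transcription, on the stability of its protein or on its succinyl-CoA supply, 3 rose and 0 fell at 30 µg/kg, where 8.39% of all genes rose. Nfe2l2, which encodes the antioxidant regulator NRF2, rose from 101 ± 4 to 154 ± 7 CPM at 10 µg/kg and 165 ± 18 CPM at 30 µg/kg, and no library of either dose reached down to the vehicle range. Its log2 changes were 0.61 and 0.71, with adjusted p-values of 3.56e-08 and 5.25e-10 (edgeR). Bach1, which encodes a repressor that heme inactivates, rose by 0.33 ± 0.10 (adjusted p = 0.0211), and Nr1i2, the pregnane X receptor, by 0.67 ± 0.24 (adjusted p = 0.0446), a call that 4 of the 10 fits without 1 library kept. Bach1 was called in 6 of those fits, and lost without vehicle replicates 3 or 4 or 30 µg/kg replicates 3 or 4 (adjusted p of up to 0.0996). Nfe2l2 alone was called with 2 groups only (Bach1 at an adjusted p of 0.165), and Nfe2l2 and Bach1 with limma-voom or the sense column. The remaining 10 did not pass at 30 µg/kg, where by unadjusted p under 0.05 there were again 3 of 13.

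In a list of hemoproteins, their reductases and enzymes that mature heme, 5 of 15 were called lower and 2 higher at 30 µg/kg, where 7.55% of all genes were lower and 8.39% higher. Cycs, cytochrome c, fell from 276 ± 27 to 193 ± 52 CPM (SD, n = 5) and Cyc1, cytochrome c1, from 419 ± 17 to 367 ± 33 CPM. Cox15 and Sdhc, named here after their values were seen, fell by 0.20 and 0.17 on the log2 scale (adjusted p = 0.0484 and 0.0498, edgeR). The fifth, Sqle, squalene epoxidase, carries flavin and no heme, so 4 of the lower calls were in genes of the list's name, and it fell from 85.3 ± 14.5 to 58.6 ± 26.6 CPM (adjusted p = 0.0362, edgeR). Cygb, cytoglobin, rose from 6.52 ± 1.35 to 13.4 ± 2.1 CPM, and Cat, catalase, from 1031 ± 41 to 1197 ± 155 CPM. Lower calls at 30 µg/kg numbered 1 of 15 with no filter on low counts and 2 of 15 in the sense column. With 2 groups only, Cygb was called higher and 0 were lower, and without 30 µg/kg replicate 3 Cat did not pass (adjusted p = 0.108). Cycs was called in all 10 fits without 1 library, Sqle in 5, Cox15 in 5, Cyc1 in 3 and Sdhc in 2. In the 10 µg/kg comparison edgeR called 0 of these 15, with 3 at an unadjusted p under 0.05, and DESeq2 and limma-voom each called 1, Cygb.

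Well known targets of the aryl hydrocarbon receptor were called higher for 6 of 7 genes at 30 µg/kg. At that dose 8.39% of all genes were called higher and 7.55% lower. The remaining gene, Cyp1a2, was called higher there with limma-voom and with 2 groups only. By the edgeR trend over dose rank 7 of 7 were called higher, where 1906 of all 17345 genes were. Log2 changes of Cyp1a1, Cyp1b1 and Nqo1 were 10.07, 3.03 and 1.80. Of 7 tested NRF2 targets 4 rose and 1 fell: Gstm1, G6pdx and Srxn1 rose by 0.97, 0.31 and 0.23, and Me1 fell by 0.44 on the log2 scale. With the 10 libraries of 30 µg/kg and vehicle alone, 1 rose and 1 fell. Set beside these, the called changes of the heme enzymes at 30 µg/kg lay between -0.28 and -0.26, a loss of 16.4% to 17.6%. Those called at 10 µg/kg, Alad and Blvra, changed by -0.33 and -0.30, a loss of 20.6% and 19.0%.

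Genes whose level followed the called members most closely over the 40 libraries were named by Pearson correlation of log2 CPM, as a description. The libraries share sex and tissue but span all 8 dose groups, so differences between doses enter r. Alad lay closest to Dcxr (r = 0.818), Gstt1 (0.779) and Abhd14a (0.744). Uros lay closest to 2310061I04Rik (0.815), Psmc4 (0.773) and Eci3 (0.763). Cpox lay closest to Hnrnpk (0.771), Pdzk1 (0.753) and Sec23b (0.730), and Blvra to Qprt (0.696), Dao (0.695) and Gstt1 (0.690).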

How the data were processed

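The authors deposited, for each of 40 libraries, whole-number read counts per gene in an unstranded column and 2 stranded columns. The submitters' processing notes name FastQC 0.11.7, Trimmomatic 0.39, STAR 2.7.3a and DESeq2, and both GRCm39 and mm10, without saying which build the counts rest on. The labels' protocols give about 100 mg of frozen right kidney per sample, TRIzol extraction, RNA integrity numbers of at least 7 and an NEB Ultra kit, and the design text gives paired reads of 150 bp. Groups and doses came from the labels, and replicates were numbered in order of deposition, so numbers pair nothing. The deposited table of the whole series was not used.

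Lines that name no gene (21.2 to 23.9% of reads per library) were left out. Among them were ambiguous reads, which overlap more than 1 gene (5.40 to 5.98%). The stranded columns held nearly equal shares (50.4 to 51.0%), so the unstranded column was used. In it, reads where genes overlap on opposite strands are ambiguous and count for neither gene. The column called sense here is the stranded column with the larger total. Of 55359 identifiers, 52083 were named from GENCODE M21, which also gave exonic lengths. Levels are CPM, counts scaled to the library's summed counts of tested genes multiplied by its TMM factor (0.966 to 1.091 over the 40 libraries). The 80 replicate pairs differed by more than sampling noise (chi-square per degree of freedom 7.34 to 87.9), so each library counted as a replicate. Reads carry no molecular identifiers and are not independent molecules.

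Tests used edgeR 4.0.16 in R 4.3.3 (quasi-likelihood, robust, TMM, filterByExpr, 17345 genes), tested on simulated counts first, with 1 fit for the doses and 1 for the trend over dose rank 0 to 7. The SE is the absolute log2 change over the square root of F, and 95% intervals are 1.96 SE. Alternatives were limma-voom (limma 3.58.1), DESeq2 1.42.0, its size factors in edgeR, no filter, the sense column, a region covariate, 2 groups only, trends without 30 µg/kg or over log10 dose, and leaving out each library. Named genes are the members, 3 other pathway genes, up to 3 called higher and 3 called lower at 30 µg/kg per list by lowest p, the 3 genes most alike to each called member by Pearson correlation over 40 libraries, and Cyp1a1 and Cyp1a2. Fdx2 and Ahsp matched no symbol, and 1 further gene of the pathway is not reported here. Promoter letters are from a RefSeq table of GRCm38.p6 and were not joined to the counts by position. The members and lists were chosen with earlier results of these data known.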

Additional observations from a re-analysis of the deposited data

Results flagged for a closer look

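In each group of 5 libraries, the highest and lowest value of each member, of 3 other pathway genes and of the total gene count was set against its nearest neighbour, and a gap above 0.71 of the group's range (Dixon's limit for 5) was noted. Of 104 groups tested 8 passed it, where chance alone gives about 5.2. Alad was low in 0.03 µg/kg replicate 2 (74.59 CPM, the next 85.37) and in 0.3 µg/kg replicate 5 (78.06 CPM, the next 90.12). Uros was low in 0.03 µg/kg replicate 5 (25.86 CPM, the next 31.55), and Cpox in 3 µg/kg replicate 1 (124.3 CPM, the next 143.9). Blvrb was high in 10 µg/kg replicate 4 (17.46 CPM, the next 12.78). Total gene counts were high in 0.1 µg/kg replicate 2 (22659733), 1 µg/kg replicate 1 (20292573) and 30 µg/kg replicate 5 (24017319).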

How the results depend on the processing

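No paired analysis was possible because the labels number the libraries in 1 run through the series and give no replicate number within a group. Alad was called at 10 µg/kg in all 8 other settings and all 10 fits without 1 library, and at 30 µg/kg in 7 and 10 of them. Members called at 10 µg/kg numbered 1 with the sense column. At 30 µg/kg they numbered 0 with 2 groups only and 5 without the 4 libraries apart in the medulla score (added after the data were seen), and 1 to 5 when 1 library was left out. Calls over all genes ran from 2014 to 3275 in those fits without 1 library. Limma-voom also called Alas1 at 30 µg/kg (adjusted p = 0.032), and no filter or the sense column lost Uros (adjusted p = 0.0926 and 0.0741). Without 30 µg/kg, the trend called Alad, Fech and Blvra, and 1399 genes in all, and it lost Uros and Cpox (adjusted p = 0.213 and 0.141, edgeR). Counts over all genes moved to 7 at 0.03, 3 at 0.3 and 284 at 3 µg/kg with DESeq2, and to 113 at 3 and 969 at 30 µg/kg with 2 groups only. Without 1 library they ran from 0 to 1 at 0.03 and from 119 to 199 at 3 µg/kg. Changes near 0 turned in sign, with no call before or after. At 10 µg/kg Blvrb turned to 0.004 (no filter), 0.010 (limma-voom), 0.148 (sense column) and -0.127 to 0.065 (1 library out), and Alas2 ran from -0.307 to 0.026 (1 library out). At 30 µg/kg Urod turned to -0.056 (sense column) and -0.023 (without the 4 libraries), Alas2 to -0.519 and Hmox2 to 0.000 (limma-voom), and Hmox2 to 0.061 (without the 4). With 1 library out, the ranges were -0.021 to 0.032 for Urod, -0.147 to 0.033 for Fech, -0.029 to 0.190 for Blvrb, -0.804 to 0.337 for Alas2 and -0.039 to 0.026 for Hmox2. The Ppox slope turned to -0.0027 without the 4 libraries and ran from -0.0027 to 0.0061 with 1 out. The causes were not tested. The 9 members held 172 to 5018 reads per library, with Blvrb the shallowest.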
